A study of Mus musculus with 8 samples.

Results

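The genes described here are the olfactory receptor genes of mouse chromosome 14, taken as every row of the deposited count table whose symbol starts with Olfr and whose chromosome is 14. There were 40 such genes among 1110 olfactory receptor rows and 25913 genes in all. RNA from dissected olfactory epithelium of C57BL/6J mice, all 40 weeks old and with no other treatment named, was sequenced in 8 libraries, 4 titled IGF1R_flfl (replicates 1, 2, 13 and 3) and 4 titled OMP_IGF1R (replicates 11, 12, 17 and 18). The study compared mice lacking the insulin-like growth factor 1 receptor, Igf1r, in a tissue-specific way with their controls, and OMP in the group names is the symbol of a gene of mature olfactory sensory neurons. The design text speaks of sensory neurons, but the protocol describes whole dissected epithelium. The genotype field contradicts the titles: it reads OMPIGF1 (KO) for the libraries titled IGF1R_flfl and OMPflfl (Ctrl) for those titled OMP_IGF1R. The groups are therefore called by their titles, as IGF1R_flfl libraries and OMP_IGF1R libraries, and no direction below is assigned to a genotype. Igf1r was at 66.5 ± 7.65 CPM (SD, n = 4; CPM is the read count scaled to library size) in the IGF1R_flfl libraries and at 42.1 ± 6.32 CPM in the OMP_IGF1R libraries. That difference was a log2 fold change of -0.66 (edgeR adjusted p = 0.0117), in the direction the titles give. The libraries held 18802471 to 27793375 counted reads, of which 44268 to 90051 were on olfactory receptors and 5174 to 16726 on those of chromosome 14.

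Olfactory receptors are G protein-coupled receptors that detect odorants, and each mature olfactory sensory neuron expresses 1 receptor gene from 1 allele. The choice of that gene depends on enhancers called Greek islands, which are bound by the transcription factors Lhx2 and Ebf and by the adaptor Ldb1. The H enhancer, the first of them to be described, lies upstream of Olfr1507 on chromosome 14, and its deletion in mice silences the receptors closest to it, Olfr1507 (MOR28), Olfr1508 (MOR10) and Olfr1509 (MOR83). In whole epithelium the RNA of a receptor follows both the number of neurons that chose it and the RNA in each of them, and these bulk libraries cannot tell the 2 apart.

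Along the chromosome the 40 genes formed 4 runs when the table was split at gaps of over 500 kb between receptors. The H cluster held 8 genes, which in order from Olfr1507 were Olfr1508, Olfr1509, Olfr1510, Olfr1511, Olfr1512, Olfr1513 and Olfr221. The longest run held 28 genes, from Olfr722 to Olfr750. A run of 3 genes (Olfr720, Olfr31 and Olfr721-ps1) and the single gene Olfr49 made up the rest. The H cluster contains several near-copies, which bears on how reads are divided between its members. The coding sequences of Olfr1507 and Olfr1508 were identical at 92.1% of bases with an unbroken shared run of 143 bases, longer than the 100-base reads. Olfr1510 and Olfr1511 were 97.3% identical (longest run 274 bases), and Olfr1512 and Olfr1513 were 96.0% identical (133 bases). Olfr1509 was less like the others, at 64.5% identity to Olfr1508, and Olfr221 shared no run longer than 20 bases with any other gene of the cluster. The 60 coding bases that start at the MAYDRY motif, a receptor hallmark at the end of the third transmembrane segment, show this. They are taken from the GENCODE M21 transcripts (GRCm38) and are printed 5′ to 3′ on the coding strand, with capitals where a base differs from Olfr1507. All lie in the coding exon, at chr14:52490543-52490602 in Olfr1507, chr14:52463588-52463647 in Olfr1508, chr14:52450766-52450825 in Olfr1509, chr14:52410445-52410504 in Olfr1510, chr14:52372638-52372697 in Olfr1512 and chr14:52035699-52035758 in Olfr221. Olfr1509 is on the plus strand and the others are on the minus strand.
Olfr1507: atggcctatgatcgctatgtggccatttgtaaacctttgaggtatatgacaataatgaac
Olfr1508: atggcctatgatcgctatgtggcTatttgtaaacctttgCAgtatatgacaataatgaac
Olfr1509: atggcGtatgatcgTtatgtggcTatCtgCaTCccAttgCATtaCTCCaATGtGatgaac
Olfr1510: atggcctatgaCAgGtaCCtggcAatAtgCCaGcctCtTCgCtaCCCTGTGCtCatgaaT
Olfr1512: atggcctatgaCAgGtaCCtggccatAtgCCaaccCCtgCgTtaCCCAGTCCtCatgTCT
Olfr221: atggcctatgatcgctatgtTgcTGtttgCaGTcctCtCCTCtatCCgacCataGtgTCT
Olfr1508 differed from Olfr1507 at 3 of these 60 bases and Olfr1509 at 19. Olfr1511 and Olfr1513 carry the same 60 bases as Olfr1510 and Olfr1512, each pair differing from Olfr1507 at 24. Over all 40 genes, 22 shared a run of at least 100 bases with another receptor, so a read can fit both and their values are uncertain to that extent.

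Receptors of chromosome 14 fell at a few positions and were not called at most others, as the plot of fold changes along the chromosome shows. Of the 38 genes that passed the filter on low counts, 7 fell in the OMP_IGF1R libraries and 0 rose (edgeR quasi-likelihood test, Benjamini-Hochberg adjusted p under 0.05 over all 17381 genes tested). Over all genes tested 5.37% were called lower and 8.20% were called in either direction. The receptors on other chromosomes had 115 of 837 called lower and 5 called higher, a share of 13.7% lower, against 18.4% on chromosome 14, so the share on chromosome 14 was near that of receptors elsewhere. The median log2 fold change was -0.25 on chromosome 14, -0.34 for the other receptors and -0.01 over all genes. The sign was negative for 28 and positive for 10 of the 38 genes (73.7% negative). It was negative for 76.3% of the receptors on other chromosomes and for 52.5% of all genes tested. At an unadjusted p under 0.05 there were 9 genes, all lower, against 14.1% of all genes lower and 23.5% in either direction, so the count in either direction was at the background share. The 7 called were Olfr1507 and Olfr1508 of the H cluster, Olfr725, Olfr730 and Olfr750 of the longest run, and Olfr31 and Olfr721-ps1 of the run of 3. The p-values measure the spread between these libraries, since the labels do not say whether each came from its own animal.

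**Figure D1:**
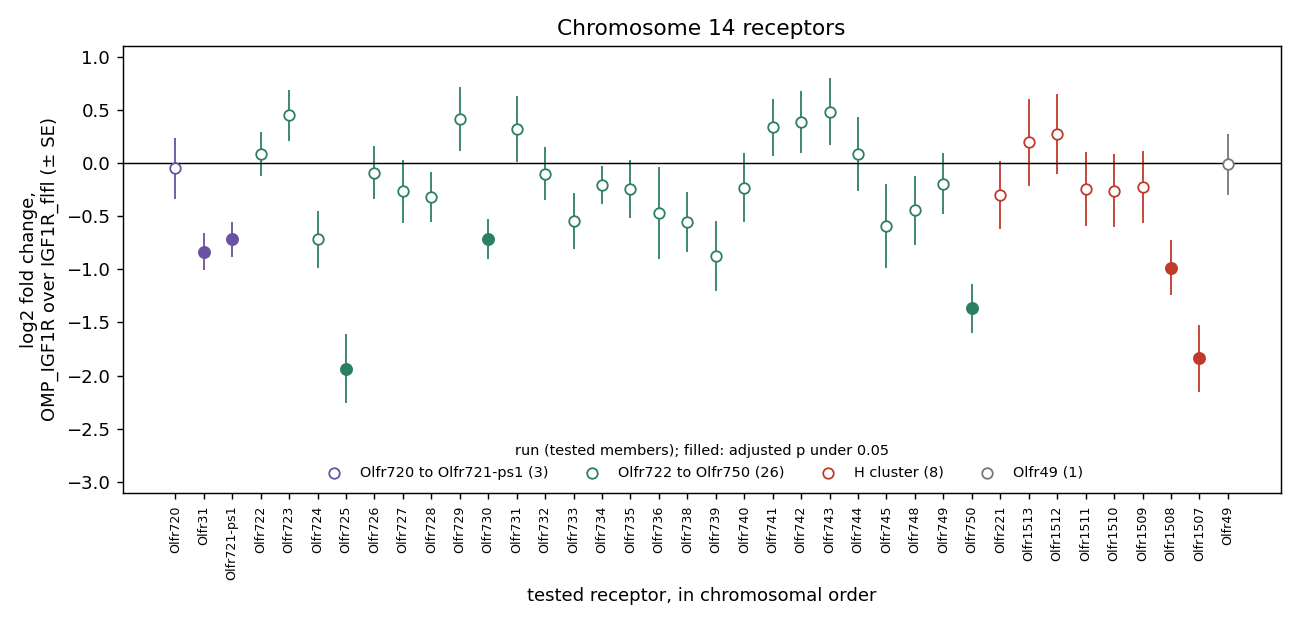
Log2 fold change of each tested chromosome 14 receptor in the 4 libraries titled OMP_IGF1R over the 4 titled IGF1R_flfl (y axis, bars are the standard error), in chromosomal order (x axis), coloured by run. Filled points are the 7 genes with an adjusted p under 0.05, all below 0, and Olfr1507 (-1.84) and Olfr725 (-1.93) lie lowest.

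Genes of mature neurons moved the same way in these libraries. Of 24 mature neuron markers 20 fell and 0 rose, with a median log2 fold change of -0.61, and their summed level went from 20098 to 27616 CPM in the IGF1R_flfl libraries to 12273 to 14349 CPM in the OMP_IGF1R libraries. Omp, the marker gene named in the group titles, was at 5386 ± 989 CPM and 1969 ± 224 CPM (log2 -1.45, edgeR adjusted p = 0.00179). Omp is among these 24 markers and in their summed level. Whether the mouse line itself alters Omp RNA was not tested. Markers of younger cells rose: 11 of 18 for immature neurons (summed level 1586 to 1731 CPM against 2184 to 2390 CPM) and 11 of 12 tested for globose basal cells (230 to 273 CPM against 362 to 451 CPM), the dividing precursors. For sustentacular cells, the supporting cells, 0 of 9 markers were called by edgeR and 0 had an unadjusted p under 0.05. Of 9 horizontal basal cell markers 4 rose and 0 fell (summed level 344 to 395 CPM against 443 to 633 CPM). Of 5 respiratory ciliated cell markers 1 fell and 0 rose. For Bowman's glands 0 of 8 and for macrophages 0 of 6 markers were called. The summed level of all 1110 receptors was 3178 ± 292 CPM and 2252 ± 152 CPM. The part of these shifts in the receptor values was not tested. With libraries scaled so that mature neuron genes other than Omp are level, 3 chromosome 14 receptors were lower (Olfr1507, Olfr725 and Olfr750) and 9 were higher. Under that scaling 0.564% of all genes were called lower and 79.4% higher. The median log2 fold change was 0.61 for all genes and 0.39 for these receptors. A shift is harder to call for genes with few reads, such as many receptors, so the shares called higher are not compared.

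Olfr1507 had the most reads of any receptor over the 8 libraries and the largest drop in CPM among the chromosome 14 receptors. It was at 333 CPM in replicate 1, 132 CPM in replicate 2, 143 CPM in replicate 13 and 213 CPM in replicate 3 of the IGF1R_flfl libraries. In the OMP_IGF1R libraries it was at 67.8 CPM in replicate 11, 39.2 CPM in replicate 12, 76.0 CPM in replicate 17 and 46.8 CPM in replicate 18. The groups did not overlap, and IGF1R_flfl replicate 1 stood highest by a wide margin. The means were 205 ± 92.3 CPM and 57.5 ± 17.3 CPM, 3.58-fold lower in the second group (log2 -1.84, SE 0.32, edgeR adjusted p = 0.0110). Without IGF1R_flfl replicate 1 the log2 fold change was -1.50 and the call held. Each value rests on 1041 to 9195 reads. Olfr1507 ranked first among the receptors in 7 libraries and was the third in OMP_IGF1R replicate 12, where another receptor of the chromosome, Olfr727, stood at 52.1 CPM.

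**Figure D2:**
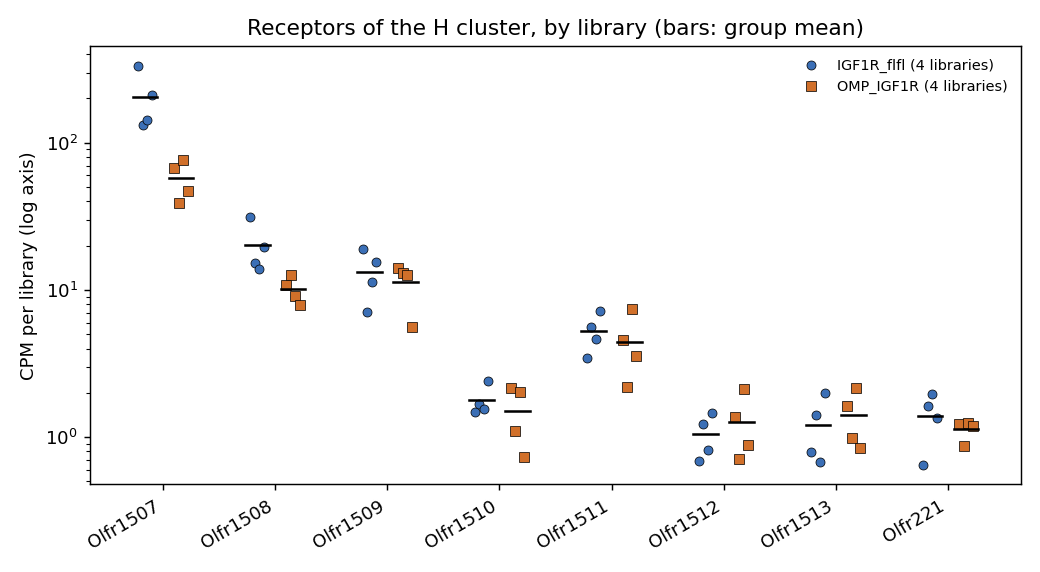
Level of each H cluster receptor in each library (CPM, log axis), with receptors ordered by distance from Olfr1507, IGF1R_flfl libraries as circles, OMP_IGF1R libraries as squares and bars at the group means. The groups are apart for Olfr1507 (132 to 333 against 39.2 to 76.0 CPM) and Olfr1508 and overlap for the other 6 receptors.

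Olfr1508, the neighbour 28.2 kb away that shares most of its coding sequence, was the other H cluster gene to fall. It was at 31.5, 15.4, 13.8 and 19.7 CPM in IGF1R_flfl replicates 1, 2, 13 and 3, and at 10.9, 12.7, 9.11 and 7.95 CPM in OMP_IGF1R replicates 11, 12, 17 and 18. The lowest value of the first group lay just above the highest of the second. The fall was 1.98-fold (log2 -0.98, SE 0.26, edgeR adjusted p = 0.0482). This call was lost, with the direction kept, in 11 of 16 other settings, among them DESeq2 size factors in edgeR (adjusted p = 0.0502) and the scaling to mature neuron genes (log2 -0.34, adjusted p = 0.23). Among these 11 were the fits without any single library other than IGF1R_flfl replicate 2 or 13. Their edgeR adjusted p ran from 0.0710 without IGF1R_flfl replicate 1, where the log2 fold change was -0.68, to 0.135 without OMP_IGF1R replicate 18. Because of the shared 143-base run, reads of the far more abundant Olfr1507 could have been counted here, and how the authors' counting divided them is not given in the sources used here.

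Olfr1509, the third of the receptors that depend on the H enhancer, did not pass the test. It was at 19.0, 7.09, 11.3 and 15.6 CPM in the IGF1R_flfl libraries and at 14.1, 13.04, 12.7 and 5.64 CPM in the OMP_IGF1R libraries, in the same order of replicates. The groups overlapped widely, and the log2 fold change of -0.22 (SE 0.34, adjusted p = 0.74 by edgeR) turned to 0.00 without IGF1R_flfl replicate 1 or without OMP_IGF1R replicate 18. Olfr1509 lies 45.3 kb from Olfr1507, with which it shares no run longer than 14 bases. Its longest run shared with any receptor was 25 bases.

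The 5 receptors farther from Olfr1507 showed no called change. Olfr1511, at 105 kb, was the most abundant of them, with 3.48 to 7.18 CPM in the IGF1R_flfl libraries and 2.18 to 7.39 CPM in the OMP_IGF1R libraries (log2 -0.25, SE 0.35). Its near-copy Olfr1510, at 84.8 kb, had 1.48 to 2.42 CPM and 0.730 to 2.14 CPM (log2 -0.26, SE 0.34). Olfr1512 (123 kb) and Olfr1513 (146 kb) had positive fold changes of 0.27 (SE 0.38) and 0.19 (SE 0.41), both of which were negative without OMP_IGF1R replicate 17. Olfr221, at 460 kb, was at 1.398 ± 0.555 CPM and 1.13 ± 0.177 CPM (log2 -0.30, SE 0.32). Along the cluster the log2 fold change thus ran from -1.84 at Olfr1507 to -0.98 at Olfr1508 and lay between -0.30 and 0.27 at the other 6, whose standard errors of 0.32 to 0.41 are too wide to detect falls of moderate size. Per kilobase of exon within the deposited gene bounds, the mean IGF1R_flfl level was 122 CPM for Olfr1507, 10.8 for Olfr1508 and 13.1 for Olfr1509. The level was 1.71 for Olfr1510 and 5.47 for Olfr1511. It was 1.11 for Olfr1512, 1.29 for Olfr1513 and 1.32 for Olfr221, so beyond Olfr1507 the order of levels was not that of distance. The deposited bounds of Olfr1507 and Olfr1508 span introns and untranslated exons, while those of the other 6 genes cover little more than the coding exon.

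The fall of Olfr1507 was larger than that of the receptor family as a whole. As a share of all reads on receptors, which does not depend on library scaling, Olfr1507 took 10.4%, 4.56%, 4.73% and 5.96% in IGF1R_flfl replicates 1, 2, 13 and 3. It took 3.002%, 1.89%, 3.11% and 2.10% in OMP_IGF1R replicates 11, 12, 17 and 18. The groups did not overlap (6.40 ± 2.72% against 2.53 ± 0.62%, exact two-sided permutation test, n = 4 each, p = 0.0286, the smallest 70 arrangements allow, adjusted p = 0.0286 over both shares). The exact permutation p rose to between 0.0571 and 0.0857 when any 1 OMP_IGF1R library was left out (without replicate 11 or 17, and without 12 or 18), with the direction kept. Within chromosome 14 the share was 45.4 ± 6.73% against 22.7 ± 5.19% (exact p = 0.0286, adjusted p = 0.0286, lower in 4 of 4 libraries). The other 39 receptors of the chromosome together took 7.33 ± 1.03% of receptor reads in the first group and 8.67 ± 1.53% in the second, and these ranges overlap. The summed level of all 40 genes had a ratio of 0.573 between the groups, which was 0.830 without Olfr1507. For the H cluster the ratio was 0.356, and 0.710 without Olfr1507.

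**Figure D3:**
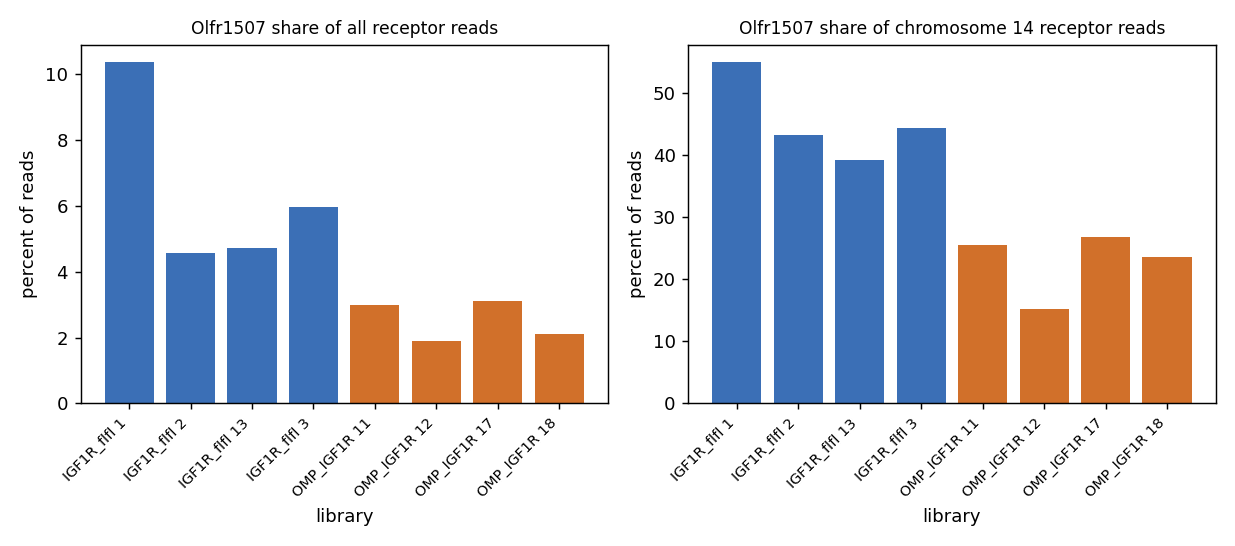
Reads on Olfr1507 as a percent of the reads on all 1110 receptors (left) and on the 40 chromosome 14 receptors (right) in each of the 8 libraries, IGF1R_flfl in blue and OMP_IGF1R in orange. On the right the 4 OMP_IGF1R libraries lie between 15.2 and 26.7 percent and the 4 IGF1R_flfl libraries between 39.2 and 55.0 percent.

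Olfr1507 also fell relative to each of its cluster neighbours. The log2 ratio of its reads to those of the neighbour, OMP_IGF1R minus IGF1R_flfl libraries, differed by -0.86 for Olfr1508, -1.57 for Olfr1509, -1.43 for Olfr1510, -1.46 for Olfr1511, -2.01 for Olfr1512, -2.02 for Olfr1513 and -1.58 for Olfr221. None of the 7 ratios overlapped between the groups (exact two-sided permutation test, n = 4 each, p = 0.0286 each, adjusted p = 0.0286 over the 7, the smallest possible). These ratios share the Olfr1507 reads and were chosen after the values were seen, so they are 1 observation rather than 7. For Olfr1509 there were 12.7 to 18.6 reads of Olfr1507 per read in the first group and 3.01 to 8.30 in the second. For Olfr1508 there were 8.60 to 10.8 and 3.08 to 8.34.

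Outside the H cluster 5 receptors fell, each with no overlap between the groups. Olfr725 had the largest fold: 5.47, 2.59, 3.36 and 5.43 CPM in IGF1R_flfl replicates 1, 2, 13 and 3, and 0.816, 0.980, 0.841 and 1.73 CPM in OMP_IGF1R replicates 11, 12, 17 and 18. It was 3.82-fold lower (log2 -1.93, SE 0.33, edgeR adjusted p = 0.0101), on 16 to 151 reads per library. Its neighbours Olfr726 and Olfr727, which resemble it closely, overlapped between the groups. Olfr726 was at 16.9 ± 5.11 CPM and 15.8 ± 4.36 CPM (log2 -0.09, SE 0.25), and Olfr727, the second most abundant receptor of the chromosome, at 49.1 ± 14.5 CPM and 40.8 ± 14.3 CPM (log2 -0.27, SE 0.30). Neither passed the test, and Olfr726 was positive without IGF1R_flfl replicate 3 or OMP_IGF1R replicate 18. The same 60 coding bases as above are shown for these genes because the called gene and the uncalled ones are near-copies. They lie in the coding exons at chr14:50034991-50035050 (minus strand), chr14:50084269-50084328 (minus strand) and chr14:50126930-50126989 (plus strand), with capitals where a base differs from Olfr725.
Olfr725: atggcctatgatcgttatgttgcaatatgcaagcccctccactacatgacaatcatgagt
Olfr726: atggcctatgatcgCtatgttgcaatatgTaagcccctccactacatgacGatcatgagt
Olfr727: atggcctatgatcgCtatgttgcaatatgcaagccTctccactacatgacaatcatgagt
Olfr725 was identical to Olfr726 at 96.0% of coding bases (longest shared run 186 bases) and to Olfr727 at 91.7% (212 bases). How reads in these stretches were divided is not given in the sources used here, so the level of each of the 3 genes is uncertain.

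Olfr750, the last gene of the longest run, fell 2.58-fold (log2 -1.37, SE 0.23, edgeR adjusted p = 0.00969). It was at 1.74, 2.02, 1.63 and 2.85 CPM in the IGF1R_flfl libraries and at 0.816, 0.716, 0.929 and 0.730 CPM in the OMP_IGF1R libraries. All 4 values of the second group lay below 1 CPM, from 16 to 21 reads per library. Olfr750 shared no run longer than 26 bases with the coding sequence of any other receptor compared. Untranslated sequence, receptors without a coding sequence and reads mapped with mismatches were not examined. It lies 1424 kb from Olfr1507. Olfr1507, Olfr725 and Olfr750 were the 3 receptors called lower in all 16 other settings tried, including each library left out. All 16 settings start from the same counts, so they cannot show how reads of near-copies such as Olfr725 were divided.

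The other 3 falls were smaller and less stable. Olfr31 was at 19.6, 14.4, 19.9 and 13.3 CPM against 11.8, 8.29, 7.83 and 9.79 CPM (log2 -0.83, SE 0.17, adjusted p = 0.0212 by edgeR), and lost its call in 5 of 16 settings: the scaling to mature neuron genes, and without IGF1R_flfl replicate 1 or OMP_IGF1R replicate 12, 17 or 18 (edgeR adjusted p up to 0.0711). Next to it, Olfr721-ps1 was at 16.01, 17.3, 16.4 and 13.1 CPM against 9.29, 6.74, 10.5 and 11.6 CPM (log2 -0.72, SE 0.16, adjusted p = 0.0292 by edgeR). It lost its call in 6 settings, among them without IGF1R_flfl replicate 1 or 13 or OMP_IGF1R replicate 11 or 17 (edgeR adjusted p up to 0.0792). Its symbol marks it as a pseudogene, though GENCODE M21 gives it a coding sequence. They lie 38168 kb and 38089 kb from Olfr1507, and the third gene of their run, Olfr720, was not called (2.49 ± 0.748 CPM and 2.40 ± 0.752 CPM). Olfr730 was at 9.52, 9.26, 8.13 and 9.56 CPM against 4.796, 3.99, 5.57 and 7.80 CPM (log2 -0.72, SE 0.19, adjusted p = 0.0488 by edgeR). It lost its call in 13 settings, among them without any single library other than OMP_IGF1R replicate 18 (edgeR adjusted p up to 0.125). The longest run shared by any of these 3 genes with another receptor was 32 bases.

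**Figure D4:**
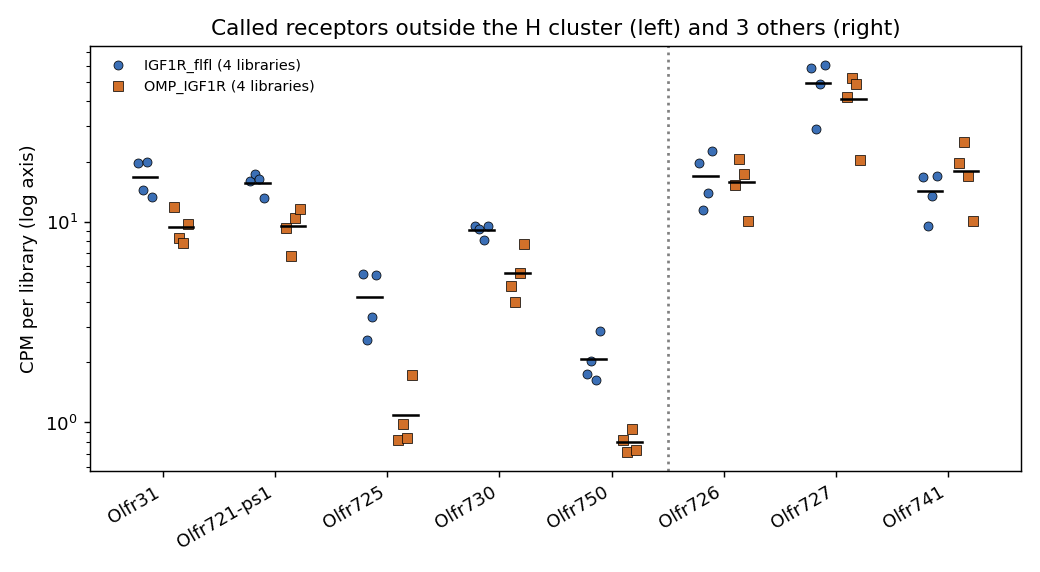
Level in each library (CPM, log axis) of the 5 called receptors outside the H cluster, left of the dotted line, and of Olfr726, Olfr727 and Olfr741, right of it, with IGF1R_flfl libraries as circles, OMP_IGF1R libraries as squares and bars at the group means. The groups do not overlap on the left and overlap on the right, where Olfr727 runs from 28.9 to 60.4 CPM and from 20.3 to 52.1 CPM.

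Of the 26 tested genes of the longest run 23 were not called. Among the more abundant ones, Olfr741 was at 14.2 ± 3.51 CPM and 17.9 ± 6.25 CPM (log2 0.33, SE 0.27), Olfr722 at 7.43 ± 2.06 CPM and 7.87 ± 1.25 CPM (log2 0.08, SE 0.21), Olfr742 at 4.81 ± 1.63 CPM and 6.28 ± 1.79 CPM (log2 0.38, SE 0.29) and Olfr743 at 5.47 ± 2.07 CPM and 7.62 ± 2.18 CPM (log2 0.48, SE 0.32). Olfr743 had the highest fold change of all 38 tested genes. Olfr723 (log2 0.45, SE 0.24) and Olfr729 (log2 0.41, SE 0.30) followed it. None of these passed the test, and Olfr722 was negative without IGF1R_flfl replicate 2 or OMP_IGF1R replicate 18. Olfr741, Olfr742 and Olfr743 are adjacent near-copies, with shared runs of 129 to 137 bases. The remaining 15 tested genes of the run, at means of 0.522 to 5.004 CPM over all libraries, had log2 fold changes of -0.88 to 0.32, 13 of them negative, with a smallest edgeR adjusted p of 0.14. The summed level of the run was 152 ± 36.0 CPM and 138 ± 26.0 CPM, a ratio of 0.912, while that of the H cluster was 249 ± 103 CPM and 88.7 ± 22.8 CPM. By levels alone, 9 of the 38 genes had no overlap between the groups with the lower values in the OMP_IGF1R libraries, against 10.3% of all genes tested: the 7 called and Olfr733 and Olfr739. Of the receptors on other chromosomes 170 of 837 were apart in the same direction.

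Within a group, many of these receptors moved together from library to library, as the map of levels by library shows. In the longest run IGF1R_flfl replicate 2 was the lowest of its group for 14 of 26 genes and replicate 3 the highest for 15. That replicate 2 also held the most RNA of olfactory bulb and oligodendrocyte markers, a summed 2014 CPM against 139 to 209.2 CPM in the other libraries. OMP_IGF1R replicate 17 held skeletal muscle markers at 533 CPM against 4.57 to 8.16 CPM elsewhere, and was the highest of its group for 5 of the 8 H cluster genes. Without these 2 libraries, an alternative chosen after the data were seen, 4 receptors were called (Olfr31, Olfr725, Olfr750 and Olfr1507), and Olfr1507 had a log2 fold change of -2.15. The call count was 3 without IGF1R_flfl replicate 1 and 3 without OMP_IGF1R replicate 17, and 4 without OMP_IGF1R replicate 11 and 4 without OMP_IGF1R replicate 12. The 2 genes that failed the filter were Olfr746, at 0.153 CPM or less in every library, and Olfr747, at 0.211 ± 0.054 CPM and 0.438 ± 0.119 CPM on 4 to 16 reads per library. They were not tested. Olfr49, the single receptor on the far side of Olfr1507, was at 3.39 ± 1.17 CPM and 3.34 ± 0.926 CPM and was not called (log2 -0.01, SE 0.29).

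**Figure D5:**
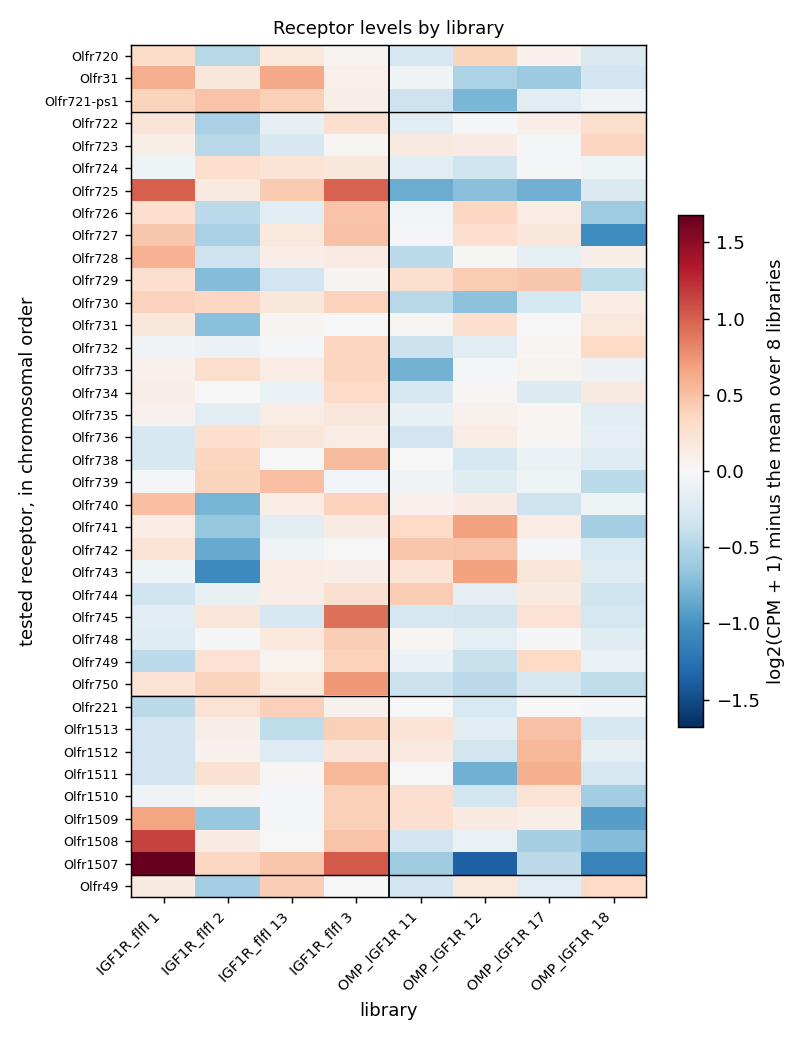
Level of each tested receptor (rows, in chromosomal order, with lines between the 4 runs) in each library (columns, IGF1R_flfl left and OMP_IGF1R right of the line), as log2(CPM + 1) minus the mean of the gene over the 8 libraries. The 7 called receptors, Olfr733 and Olfr739 do not overlap between the groups. Much of the rest of the longest run varies by library, with IGF1R_flfl 2 the lowest of its group for 14 of the 26 genes of the run.

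Lhx2, Ldb1 and the Ebf factors, which bind the H enhancer, were not called. Of 23 genes of the Greek islands and of receptor choice, 1 rose and 3 fell (median log2 -0.02), against 8.20% called over all genes. Lhx2, the homeodomain factor of these enhancers, was at 238 ± 33.4 CPM and 234 ± 11.3 CPM (log2 -0.02, SE 0.10), and Ldb1 at 131 ± 15.5 CPM and 143 ± 5.61 CPM (log2 0.13, SE 0.08). Ebf1, Ebf2, Ebf3 and Ebf4 had log2 fold changes of -0.02, -0.01, -0.19 and -0.16, none called. The falls were in Adcy3, the cyclase of odorant signalling and of receptor feedback (log2 -0.90, edgeR adjusted p = 0.00498), and in Rtp1 (-0.42) and Rtp2 (-0.51), which carry receptors to the cell surface, all 3 of which also belong to the mature neuron markers. The rise was in Rcor1 (0.39), a corepressor partner of the demethylase Kdm1a. Receptors of chromosome 14 are expressed in set zones of the epithelium, so genes with zonal expression were examined as well. Of 18 such genes 3 rose, Crabp1 (0.36), Sema3a (0.39) and Nrp1 (0.22), and 0 fell (edgeR), against 2.83% of all genes called higher. At an unadjusted p under 0.05 there were 11 of the 18, against 23.5% of all genes. Nqo1, a marker of the dorsal zone, was at 272 ± 94.4 CPM and 219 ± 87.7 CPM, and Acsm4, another dorsal gene, at 386 ± 95.3 CPM and 451 ± 105 CPM, with overlapping groups. Nqo1 was at 131, 303, 320 and 334 CPM in IGF1R_flfl replicates 1, 2, 13 and 3. It was at 313, 136, 273 and 153 CPM in OMP_IGF1R replicates 11, 12, 17 and 18. IGF1R_flfl replicate 1, the highest for Olfr1507, was the lowest of its group for Nqo1 and Acsm4 (247 CPM). In the OMP_IGF1R group replicates 11 and 17 were highest for both Olfr1507 and Nqo1. The part of this spread in the receptor values was not tested.

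Of the 18 tested non-receptor genes within the H cluster and nearest to it on either side, 1 was called, against 8.20% of all genes in either direction. It was the vesicle GTPase Rab2b (log2 -0.29, SE 0.08, edgeR adjusted p = 0.0466). The 8 that lie between Olfr221 and Olfr1513, among them Chd8, a chromatin remodeller (log2 -0.03), Mettl3, an RNA methyltransferase (-0.04), and Sall2, a zinc finger factor (0.00), had log2 fold changes of -0.29 to 0.07. The 5 before the cluster lie 14.3 to 138 kb from it, and the 5 on the side of Olfr1507 lie 1740 to 1931 kb away, so they say nothing of its immediate surroundings.

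The start region of Olfr1508 is shown because it is the called H cluster gene for which RefSeq (GRCm38.p6) gives a start within 100 bases of the GENCODE 5′ end. Of the 33 members with a RefSeq window only 2, Olfr1508 and Olfr722, have such a start, so windows of the other members may not be promoters. The 210 bases at chr14:52467502-52467711 (minus strand), which begin 250 bases before the start, are printed 5′ to 3′, with the homeodomain motif TAATGA on the opposite strand in capitals.
Olfr1508: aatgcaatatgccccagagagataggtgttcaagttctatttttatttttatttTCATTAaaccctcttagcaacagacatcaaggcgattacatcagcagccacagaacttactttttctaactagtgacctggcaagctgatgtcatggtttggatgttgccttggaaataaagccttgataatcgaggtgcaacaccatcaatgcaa
The motif begins at position -196 from the start, and a second match, at position 36 after it, lies outside the printed stretch. Searched on both strands, TAATGA was in 9.78% of all 32851 windows of 300 bases, in 28.8% of the 948 receptor windows and in 14 of the 33 chromosome 14 windows. The motif TAATTA was in 5.29% of all windows, 18.6% of receptor windows and 6 of the 33. The Ebf motif CCCNNGGG was in 13.7% of all windows, 3.06% of receptor windows and 0 of the 33. A match is a description of the letters.

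Other fits of the same counts called like numbers. DESeq2 called 7 of the chromosome 14 receptors lower and 0 higher, with 7.98% of all genes lower, and limma voom with sample weights called 6 lower and 0 higher, with 6.97% of all genes lower. In the authors' deposited table of their comparison, the same 7 receptors had an adjusted p under 0.05 with a negative fold change, as had 8.43% of its genes. The headers of the authors' deposited table do not say which group is over which. It gives Olfr1507 a log2 fold change of -0.82 and Olfr725 one of -0.95, where DESeq2 as run here gave -1.83 and -1.93. The reason for the smaller sizes was not tested, so they are not compared with the sizes above.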

How the data were processed

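The values of the read table deposited by the authors are whole numbers with a different total in each library, so they were taken as raw counts. The submitters' processing notes name DESeq2, SAMtools 1.2, TopHat2 2.0.14 and Trim Galore 0.3.7, with GRCm38 (mm10) as the build. The tool that counted reads, with its strand setting, is not given in the sources used here, so overlapping genes and near-identical receptors may share reads. The deposited bounds of 36 of the 40 receptors span under 1200 bases, so reads on untranslated exons outside them may not have been counted. A second file deposited by the authors gives, per the file headers, a mean normalized signal, log2 fold changes, a test score and p-values, which were used for description alone.

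Counts were tested with edgeR 4.0.16 in R 4.3.3 (TMM, filterByExpr, quasi-likelihood test) over all 17381 genes that passed the filter. The p-values were adjusted by Benjamini-Hochberg with a threshold of 0.05, and fold changes are OMP_IGF1R over IGF1R_flfl. CPM use TMM effective library sizes. Alternatives used DESeq2 1.42.0 and limma 3.58.1 (voom). Numbers that open the library titles run from 35138 to 35141 in one group and from 35156 to 35159 in the other, so a batch along them cannot be told apart from the group. The mean chi-square of a gene between replicates of a group was 11.4 to 104, so no library was treated as a copy of another. Depth limits the receptors under 1 CPM most. Sequences were compared with Python 3.11.15 and Biopython 1.88. The edgeR step was tested on simulated data.

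The members and gene lists were chosen with earlier results of these data known. The receptors named are all of the H cluster, all called, the 6 most abundant others, and the 3 highest and 3 lowest fold changes among those of at least 1 CPM. Olfr49, Olfr720, Olfr733, Olfr739, Olfr746 and Olfr747 were named after their values were seen.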

Additional observations from a re-analysis of the deposited data

Results flagged for a closer look

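Of 46 sets of values tested for a sample far from the rest of its group, 1 stood out, and chance gives about 1 in 20. Olfr221 was at 0.867 CPM in OMP_IGF1R replicate 12, while the other 3 libraries of that group lay between 1.19 and 1.24 CPM.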

How the results depend on the processing

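Olfr1507, Olfr725 and Olfr750 were called lower in all 16 alternative settings, with log2 fold changes of -2.15 to -1.22 for Olfr1507 (highest edgeR adjusted p = 0.0427, without OMP_IGF1R replicate 18), -2.25 to -1.28 for Olfr725 and -1.45 to -0.73 for Olfr750. These settings reuse the same counts and do not bear on how reads of near-copies were divided. The number of chromosome 14 receptors called was 7. It was 12 with scaling to mature neuron genes (3 lower and 9 higher, where 0.564% of all genes were called lower and 79.4% higher), 3 to 6 with 1 library left out, and 4 without IGF1R_flfl 2 and OMP_IGF1R 17. The number of H cluster receptors called was 2. It was 1 with DESeq2 size factors, with upper-quartile factors, with no filter beyond 1 count, and without IGF1R_flfl 2 and OMP_IGF1R 17. It was 1 to 2 with 1 library left out. Cut at gaps of 200 kb the cluster lost Olfr221, with 7 tested genes and 2 called. Cut at gaps of 1 Mb the cluster took in the longest run, with 34 tested genes and 5 called. Where 1 was called it was Olfr1507. Under the scaling to mature neuron genes the 2 called were Olfr1507, lower, and Olfr1512, higher (0.88). The median log2 fold change of the receptors was -0.25 and turned to 0.39 under the scaling to mature neuron genes, where the median of all genes was 0.61. The summed ratio moved without Olfr1507 alone, to 0.830 for the chromosome and 0.710 for the H cluster. The share of receptor reads on Olfr1507 differed by -3.88 percentage points, and by -4.49 to -2.56 with 1 library left out, where the exact p rose to 0.0857 without OMP_IGF1R 12 or 18 and to 0.0571 without OMP_IGF1R 11 or 17. Without IGF1R_flfl 2 and OMP_IGF1R 17 it was -4.69, and the chromosome 14 share differed by -24.7, both at an exact p of 0.10, the smallest that 3 against 3 allow.

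Signs of receptors that were not called turned under the scaling to mature neuron genes for Olfr221 (0.30), Olfr1511 (0.36), Olfr1510 (0.36), Olfr1509 (0.42), Olfr727 (0.38) and Olfr726 (0.57). With 1 library left out, signs turned for Olfr1513 (-0.088 to 0.53, lowest without OMP_IGF1R 17), Olfr1512 (-0.086 to 0.48, lowest without OMP_IGF1R 17), Olfr1509 (-0.43 to 0.0024, above 0 without IGF1R_flfl 1 or OMP_IGF1R 18), Olfr726 (-0.24 to 0.086, above 0 without IGF1R_flfl 3 or OMP_IGF1R 18) and Olfr722 (-0.064 to 0.22, below 0 without IGF1R_flfl 2 or OMP_IGF1R 18). Without IGF1R_flfl 2 and OMP_IGF1R 17 together Olfr1513 was at -0.018, Olfr1512 at -0.0093 and Olfr722 at -0.081. The cause was not tested. No paired analysis was possible because the groups share no replicate number.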
